A study of Mus musculus with 9 samples.

Results

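The genes described here are 10 members of the Notch pathway. They include the receptors Notch1, Notch2 and Notch3, the ligands Dll1, Dll3 and Jag1, and the receptor-modifying enzyme Lfng. The other members are the response genes Hes1 and Hey1 and the Deltex family gene Dtx4. Their probes were found by symbol, and 12 of the 45281 probes on the array carried one of these symbols. The 9 arrays, Illumina bead arrays read in a single colour, held RNA of male mouse epiblast stem cells of 129 background that carry a dsRed2 fluorescent reporter. Epiblast stem cells are pluripotent cells derived from the post-implantation epiblast, and the medium of every group held activin A (20 ng/ml) and bFGF (10 ng/ml). The groups, of 3 arrays each, were cells given 3 uM CHIRON for 48 h (a name commonly used for CHIR99021, an inhibitor of GSK3 that activates Wnt signalling), untreated cells sorted as dsRed2 positive, and untreated cells sorted as dsRed2 negative. The labels describe the replicates as biological but do not say what drives dsRed2, whether the CHIRON cells were sorted, or how many clones or cultures were used.

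Notch receptors are membrane proteins that are cut when a Delta or Jagged ligand on a neighbouring cell binds them, first by an ADAM protease and then by gamma-secretase. The released intracellular part enters the nucleus, joins the DNA-binding protein Rbpj and Mastermind co-activators, and switches on targets that include the Hes and Hey repressors. In the mouse embryo the pathway is best known for the segmentation of presomitic mesoderm into somites, where it runs together with Wnt and FGF signalling, and for holding back neural differentiation.

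Median signal was 95.1 to 109 across the arrays, and 36.7% to 41.1% of the probes of an array were detected (detection p below 0.05). Of 12 epiblast stem cell markers, 11 were detected on all 3 arrays of every group and Epcam on none, but their levels differed: 2 rose and 7 fell in CHIRON against dsRed2 negative cells, and 2 rose and 6 fell against dsRed2 positive cells. Nanog averaged 7.19 in CHIRON, 10.65 in dsRed2 positive and 10.65 in dsRed2 negative cells (log2 signal), Utf1 7.05, 10.77 and 10.69, and Otx2 10.66, 9.54 and 9.44 in the same groups. Nanog (adjusted p = 1.11e-06 against dsRed2 negative cells, limma) and Utf1 (adjusted p = 2.69e-07), both named after their values were seen, fell, and their part in the changes of Notch genes was not tested. The markers' summed linear level was 7988 to 13970 on CHIRON arrays, 14540 to 17830 on dsRed2 positive arrays and 14290 to 15530 on dsRed2 negative arrays. CHIRON replicates 1 and 2 lay closer together than any other pair: the log2 differences between them had an SD of 0.123 across 1559 genes with a mean log2 signal over 10, while CHIRON replicate 3 gave 0.337 and 0.345 when set against each. The number of arrays limits the precision of all values here.

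Of the 12 probes, 7 were detected on at least 3 of the 9 arrays and could be tested, and they stand for 6 genes: Notch1, Notch3, Dll1, Hes1, Hey1 and Dtx4 (with 2 probes). Of these 6 genes, 3 rose in CHIRON cells against dsRed2 negative cells (Hes1, Dll1 and Hey1), 2 fell (Notch3 and Dtx4) and 1 was not called (Notch1). Across all 13204 genes tested, 40% were called in this comparison, 20.1% higher and 19.9% lower, so a call by itself is common. Against dsRed2 positive cells, which share the CHIRON arrays with the first comparison, 3 members were again called higher and 2 lower, beside 41% of all genes. Between dsRed2 positive and dsRed2 negative cells no member was called, beside 0% of all genes. A call is an adjusted p below 0.05 (Benjamini-Hochberg over all 13204 genes) from limma fitted to the 9 arrays on log2 normalized signal, with the brightest detected probe standing for a gene. The other 4 members, Notch2, Dll3, Jag1 and Lfng, did not pass the detection filter and have no test.

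**Figure D1:**
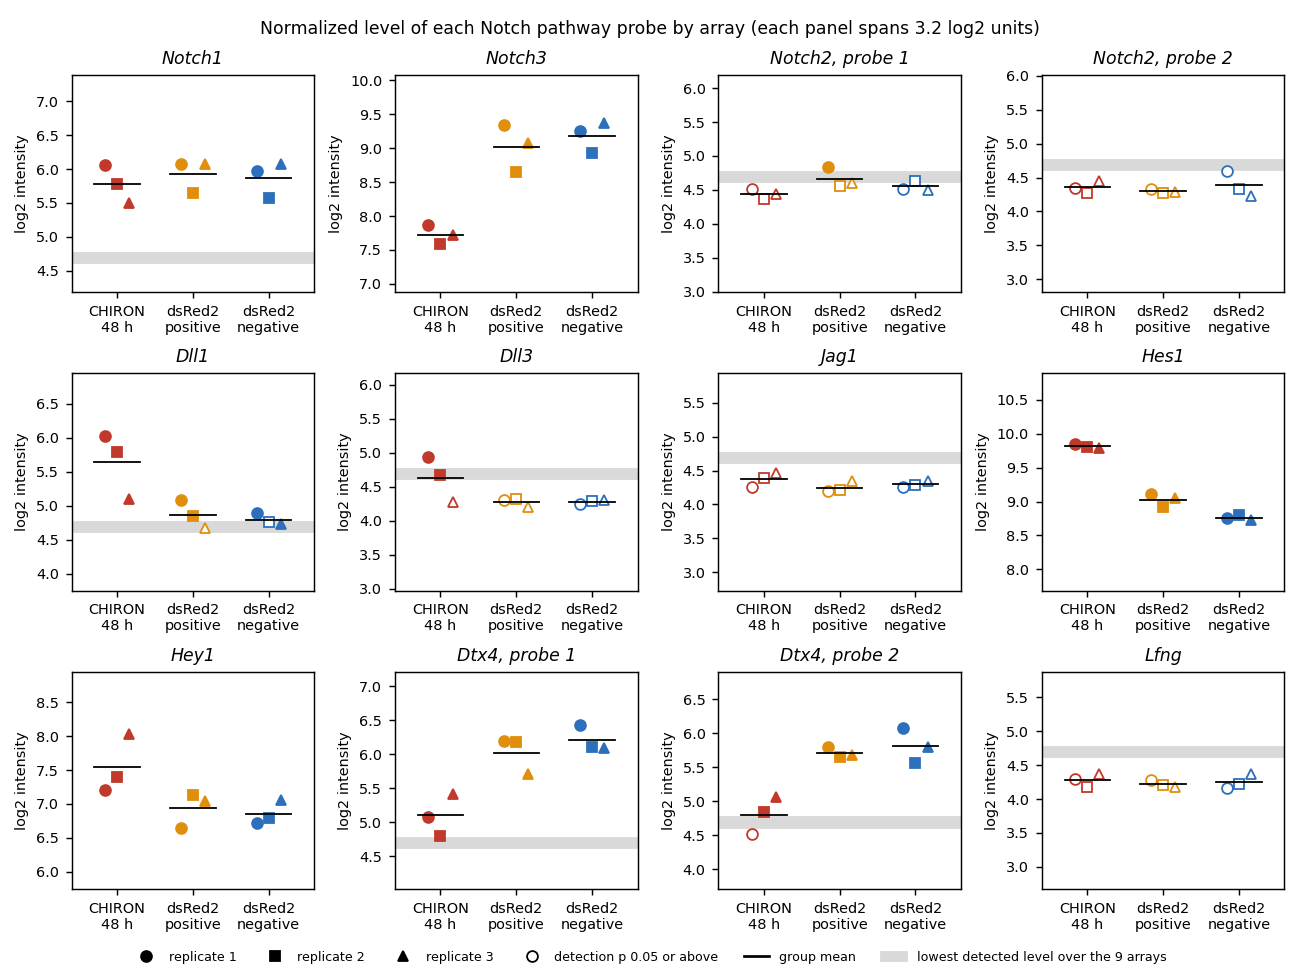
Normalized signal (log2, vertical axes) of every probe of the 10 members, 1 panel per probe, with 1 point per array for CHIRON, dsRed2 positive and dsRed2 negative cells from left to right. Horizontal bars are group means, open symbols were not detected, and the grey band is the lowest detected level over the 9 arrays. CHIRON arrays stand above all 6 sorted arrays for Hes1, Dll1 and Hey1 and below them for Notch3 and both Dtx4 probes.

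Promoter sequence is shown for 2 members that changed, Notch3 and Dll1, and for Lfng, whose window holds more matches than that of any other member in the table. The 250 bases before the annotated start are from RefSeq (GRCm38.p6), whose promoter table holds 7 of the 10 members. No sequence is shown for Hes1, Hey1 and Dtx4. Letters searched, on both strands, were TGGGAA (the core of the Rbpj motif), CACGNG (bound by Hes and Hey proteins) and CTTTGAT (a TCF/LEF motif). Capitals mark the matches, and each sequence reads 5′ to 3′ along the gene's strand.
Notch3, chr17:32166891-32167140, minus strand: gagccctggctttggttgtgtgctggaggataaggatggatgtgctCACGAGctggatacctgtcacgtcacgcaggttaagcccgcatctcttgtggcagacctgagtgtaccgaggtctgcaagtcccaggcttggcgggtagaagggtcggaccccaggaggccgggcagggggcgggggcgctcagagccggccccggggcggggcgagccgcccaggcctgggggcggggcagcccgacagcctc
Dll1, chr17:15376933-15377182, minus strand: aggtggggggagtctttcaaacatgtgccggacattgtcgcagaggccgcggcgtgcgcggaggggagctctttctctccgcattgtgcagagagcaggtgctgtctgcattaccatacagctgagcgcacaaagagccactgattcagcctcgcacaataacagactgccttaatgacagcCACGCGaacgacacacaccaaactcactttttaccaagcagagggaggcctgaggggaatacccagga
Lfng, chr5:140607091-140607340, plus strand: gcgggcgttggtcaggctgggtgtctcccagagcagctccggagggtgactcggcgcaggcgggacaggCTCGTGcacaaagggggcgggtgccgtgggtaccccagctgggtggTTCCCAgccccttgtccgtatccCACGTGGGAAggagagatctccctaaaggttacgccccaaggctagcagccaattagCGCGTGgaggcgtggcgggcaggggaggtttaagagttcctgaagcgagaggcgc
Among the windows of these 7 members, Rbpj core letters occurred in that of Lfng alone, at 135 to 130 and 108 to 103 bases before the start. CACGNG occurred once in the Notch3 window, 204 to 199 bases before the start, and once in this Dll1 window, 68 to 63 bases before it. It occurred at 3 places in the Lfng window, of which 1, at 112 to 107 bases, overlaps an Rbpj core match. Among the windows not shown, it occurred at 1 place for Notch2, 2 for Jag1 and 1 in the other Dll1 window. CTTTGAT occurred in none of the windows of the 7. Of 32851 promoter windows of the same length in the table, 21.6% held TGGGAA, 23.5% held CACGNG and 3.21% held CTTTGAT, so the letters found are common and only describe the sequence.

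Notch3 was the member with the largest difference. This receptor, best known from vascular smooth muscle, had log2 signals of 7.86, 7.59 and 7.72 on the CHIRON arrays, 9.34, 8.65 and 9.07 on the dsRed2 positive arrays and 9.25, 8.93 and 9.37 on the dsRed2 negative arrays. Every CHIRON array was below every sorted array, while the sorted groups overlapped. Notch3 fell by 1.46 on the log2 scale against dsRed2 negative cells (SE 0.18, 95% interval -1.87 to -1.05, adjusted p = 0.000173, limma), which is 2.75-fold lower in CHIRON cells. Against dsRed2 positive cells it fell by 1.29 (SE 0.18, -1.70 to -0.89, adjusted p = 0.000345), or 2.45-fold. Its absolute difference from dsRed2 negative cells was larger than that of 94.7% of all genes tested. In these bulk samples, fewer cells that carry an RNA and less of that RNA per cell cannot be told apart.

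Notch1, the receptor required for somite boundaries and embryo survival in mice, was detected on all 9 arrays. Its log2 signals were 6.06, 5.78 and 5.50 on the CHIRON arrays, 6.08, 5.65 and 6.07 on the dsRed2 positive arrays and 5.97, 5.58 and 6.08 on the dsRed2 negative arrays. The 3 groups overlapped fully. CHIRON minus dsRed2 negative was -0.09 (95% interval -0.51 to 0.33, adjusted p = 0.731, limma) and CHIRON minus dsRed2 positive was -0.15 (-0.57 to 0.27, adjusted p = 0.565). These intervals do not show that the level was equal.

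Notch2, which has 2 probes, stayed near background. Its first probe gave log2 signals of 4.51, 4.36 and 4.44 in CHIRON cells, 4.84, 4.56 and 4.60 in dsRed2 positive cells and 4.52, 4.64 and 4.50 in dsRed2 negative cells, and was detected on 1 array, dsRed2 positive replicate 1. The second probe, at 4.23 to 4.60 over all arrays, was detected on none.

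Among the ligands, Dll1, a Delta ligand that the mouse embryo expresses in presomitic mesoderm, rose in CHIRON cells. Its log2 signals were 6.03, 5.80 and 5.10 on the CHIRON arrays, 5.08, 4.84 and 4.67 on the dsRed2 positive arrays and 4.89, 4.76 and 4.73 on the dsRed2 negative arrays. CHIRON replicates 1 and 2 stood clear of all sorted arrays, whereas CHIRON replicate 3 exceeded dsRed2 positive replicate 1 by little. The probe was detected on 3 CHIRON, 2 dsRed2 positive and 2 dsRed2 negative arrays, so its sorted values lie at the edge of detection. Dll1 was 0.85 higher on the log2 scale than in dsRed2 negative cells (SE 0.21, 95% interval 0.37 to 1.32, adjusted p = 0.00946, limma), or 1.80-fold. Against dsRed2 positive cells the difference was 0.77 (SE 0.21, 0.30 to 1.25, adjusted p = 0.0143), or 1.71-fold, and that call was lost without any one of CHIRON replicate 1 (0.58, adjusted p = 0.0572), CHIRON replicate 2 (0.70, adjusted p = 0.0512) or dsRed2 positive replicate 3 (0.68, adjusted p = 0.0581). Without background correction the difference from dsRed2 negative cells was 0.25 and still called.

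Dll3, a Delta family protein that acts inside the cell and dampens Notch signalling during mouse segmentation, was detected on CHIRON replicates 1 and 2 and on no other array. Its log2 signals were 4.94, 4.67 and 4.27 in CHIRON cells, 4.31, 4.32 and 4.20 in dsRed2 positive cells and 4.25, 4.29 and 4.31 in dsRed2 negative cells. CHIRON replicate 3 lay within the range of the sorted arrays, and no fold is given because the CHIRON mean did not exceed the detection limit of the other arrays.

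Jag1, a Jagged ligand, and Lfng, the Fringe enzyme that adds a sugar to Notch receptors and cycles in presomitic mesoderm, were detected on no array. Jag1 gave 4.26, 4.39 and 4.46 in CHIRON cells, 4.20, 4.21 and 4.34 in dsRed2 positive cells and 4.26, 4.29 and 4.34 in dsRed2 negative cells on the log2 scale. For Lfng the values were 4.29, 4.17 and 4.37 in CHIRON cells, 4.28, 4.21 and 4.17 in dsRed2 positive cells and 4.17, 4.23 and 4.37 in dsRed2 negative cells. Both sets of values are background signal, and a level below detection on this platform is not an absence of RNA.

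Hes1, a basic helix-loop-helix repressor and the best known Notch target, had its highest levels on the CHIRON arrays. Its log2 signals were 9.85, 9.80 and 9.79 on the CHIRON arrays, 9.11, 8.92 and 9.05 on the dsRed2 positive arrays and 8.76, 8.80 and 8.73 on the dsRed2 negative arrays. No 2 of the 3 groups overlapped. Between the sorted groups, however, Hes1 did not pass the test (adjusted p = 0.9998, limma), and 7.67% of all genes did not overlap. Hes1 was 1.05 higher in CHIRON than in dsRed2 negative cells (SE 0.11, 95% interval 0.81 to 1.29, adjusted p = 4.48e-05, limma), or 2.07-fold, and 0.79 higher than in dsRed2 positive cells (SE 0.11, 0.55 to 1.02, adjusted p = 0.000264), or 1.72-fold.

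Hey1, a related repressor, rose less and varied more. Log2 signals were 7.21, 7.40 and 8.03 on the CHIRON arrays, 6.65, 7.14 and 7.05 on the dsRed2 positive arrays and 6.73, 6.79 and 7.06 on the dsRed2 negative arrays. CHIRON replicate 3 was well above the others, and CHIRON replicate 1 was close to dsRed2 positive replicate 2. The difference from dsRed2 negative cells was 0.69 (SE 0.21, 95% interval 0.22 to 1.16, adjusted p = 0.0256, limma), or 1.61-fold, and from dsRed2 positive cells 0.60 (SE 0.21, 0.13 to 1.07, adjusted p = 0.0443), or 1.52-fold. Without CHIRON replicate 3 they were 0.45 (adjusted p = 0.0694) and 0.36 (adjusted p = 0.134), neither called. Against dsRed2 negative cells the call was lost as well without dsRed2 negative replicate 1 (adjusted p = 0.0805) or 2 (adjusted p = 0.0666). Against dsRed2 positive cells it held without CHIRON replicate 1 or without dsRed2 positive replicate 2 and was lost without any one of the other 7 arrays (adjusted p 0.0522 to 0.159).

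Dtx4, a Deltex family protein with a RING finger of the kind found in ubiquitin ligases, fell on both of its probes. The brighter probe gave log2 signals of 5.08, 4.79 and 5.42 in CHIRON cells, 6.19, 6.17 and 5.71 in dsRed2 positive cells and 6.42, 6.11 and 6.09 in dsRed2 negative cells. On the other probe they were 4.52, 4.84 and 5.06 in CHIRON cells, 5.80, 5.65 and 5.69 in dsRed2 positive cells and 6.09, 5.57 and 5.79 in dsRed2 negative cells. On either probe all CHIRON arrays were below all sorted arrays. By the brighter probe Dtx4 fell by 1.11 against dsRed2 negative cells (SE 0.19, 95% interval -1.53 to -0.69, adjusted p = 0.00106, limma), or 2.16-fold, and by 0.93 against dsRed2 positive cells (SE 0.19, adjusted p = 0.00298), or 1.90-fold. On the other probe, fitted over all 19074 detected probes, the differences were -1.01 (adjusted p = 0.000834) and -0.91 (adjusted p = 0.00154). That probe was detected on 2 of the 3 CHIRON arrays, so its CHIRON level lies at the detection limit, and without background correction the gene's difference from dsRed2 negative cells was -0.38 and still called.

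**Figure D2:**
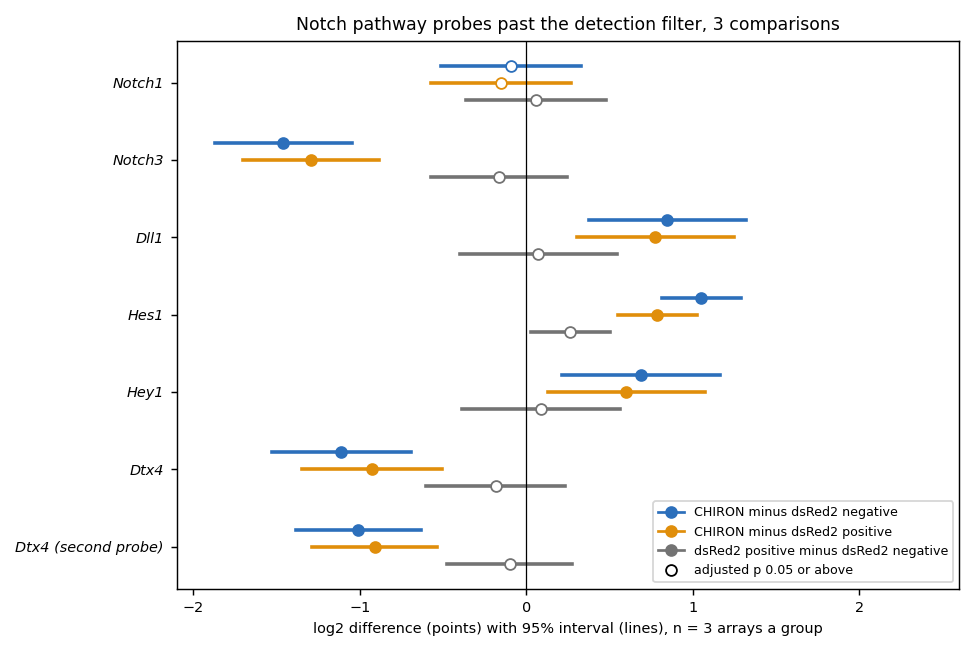
Log2 differences of the tested probes (horizontal axis) with 95% intervals from limma, for CHIRON minus dsRed2 negative, CHIRON minus dsRed2 positive and dsRed2 positive minus dsRed2 negative. Intervals of Notch3, Dtx4, Dll1, Hes1 and Hey1 exclude 0 in both CHIRON comparisons, and in the comparison of the sorted cells only that of Hes1 does.

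Counted by overlap, 5 of the 6 tested members had CHIRON arrays that did not overlap the dsRed2 negative arrays (3 higher, 2 lower), where 51.3% of all genes did not overlap (25.7% higher, 25.6% lower). Against dsRed2 positive arrays the count was also 5 of 6 (3 higher, 2 lower), beside 53.2% of all genes (26.5% higher, 26.7% lower). The median absolute log2 difference of the tested members was 0.95 against dsRed2 negative cells, beside 0.33 over all genes, and 0.78 against dsRed2 positive cells, beside 0.34. Their signed medians were 0.30 and 0.22, beside -0.01 and -0.02 over all genes. Because the members were chosen with earlier results of these data known, these values only describe them. They are no test of the members against all genes.

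Between the sorted groups no member passed the test. dsRed2 positive minus dsRed2 negative was -0.16 for Notch3 (95% interval -0.57 to 0.24), 0.06 for Notch1 (-0.36 to 0.48), 0.07 for Dll1 (-0.40 to 0.54), 0.09 for Hey1 (-0.39 to 0.56) and -0.19 for Dtx4 (-0.61 to 0.23), each with an adjusted p of 0.9998 from limma. These intervals leave the replicate number out and do not show that the sorted cells were alike. With it as a block over the 6 sorted arrays, SEs were smaller, as for Notch3 (0.11 against 0.18) and Dll1 (0.10 against 0.21). The adjusted p of the same members was then 0.688 (Dtx4) to 0.903 (Notch1) from limma. Over all genes the count of calls was 0 without the replicate number and 3 with it as a block. At an unadjusted p below 0.05 were 370 of 13204 genes without it and 1210 with it.

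Hes1 had the smallest unadjusted p of the members between the sorted groups. It was 0.26 higher in dsRed2 positive cells (SE 0.11, 95% interval 0.03 to 0.50), with an unadjusted p of 0.032 and an adjusted p of 0.9998 from limma, so it did not pass. By replicate number, dsRed2 positive minus dsRed2 negative was 0.35, 0.12 and 0.33, higher in 3 of 3. Hes1 was the 1 tested member of 6 whose sorted groups did not overlap, where 7.67% of all genes did not overlap (3.64% higher, 4.04% lower). With the replicate number as a block in a fit of the 6 sorted arrays its adjusted p was 0.4997, and that fit called 3 genes and no member. Notch3, by contrast, gave 0.09, -0.28 and -0.30, and Hey1 gave -0.07, 0.35 and -0.01, with no common sign.

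Other genes of the pathway were taken in 8 lists without the members, of which 75 genes could be tested. In CHIRON against dsRed2 negative cells 21 rose and 15 fell, 48% in all beside 40% of all genes. Relative to dsRed2 positive cells 22 rose and 15 fell, 49.3% beside 41%. Without Tle2 and Mesp1, which were detected on CHIRON arrays alone and passed the filter through them, 19 and 20 of 73 rose. The shares called were then 46.6% and 47.9%, whereas the 40% and 41% of all genes were counted without such a removal. These counts still hold Foxc1, Mfng and Lef1 (named after its values were seen), all called higher in both comparisons. Each was detected on 3 CHIRON arrays and on at most 1 array of a sorted group, so they too passed only with the CHIRON arrays. No share without them was computed. The lists, like the members, were chosen with earlier results of these data known. Between the sorted groups none of the 75 was called. The calls of each list below stand beside the same 40% and 41% of all genes in the CHIRON comparisons.

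Of the other receptors and ligands, 6 of 8 were tested, and 3 rose and 2 fell in each CHIRON comparison. Notch4, a receptor best known from endothelium, averaged 7.53 ± 0.08 in CHIRON cells, 6.09 ± 0.11 in dsRed2 positive cells and 6.02 ± 0.18 in dsRed2 negative cells (log2 signal, SD, n = 3 each). It was 1.50 higher than in dsRed2 negative cells (adjusted p = 1.44e-05, limma) and 1.44 higher than in dsRed2 positive cells (adjusted p = 1.88e-05). Of 6 endothelial markers, Cdh5 and Emcn were detected on no array and Pecam1, Tek and Tie1 on 1 to 2 arrays each. Esam was detected on all 9 arrays and averaged 5.87 in CHIRON, 5.48 in dsRed2 positive and 5.44 in dsRed2 negative cells (log2 signal), with no call in either CHIRON comparison. The endothelial list summed to 161 to 186 on CHIRON arrays, 146 to 166 on dsRed2 positive arrays and 146 to 174 on dsRed2 negative arrays. Its part in the change of Notch4 was not tested. Jag2, a Jagged ligand, fell by 1.29 against dsRed2 negative cells (adjusted p = 4.91e-05) and by 1.06 against dsRed2 positive cells (adjusted p = 0.000164). Dlk2, a Delta-like protein without the ligand domain that activates Notch, fell by 1.54 (adjusted p = 0.000116) and by 0.87 (adjusted p = 0.00342). With the deposited log2 values the Dlk2 call against dsRed2 positive cells was lost (adjusted p = 0.0572). Mfap2, a microfibril protein that can bind Notch receptors and Jagged ligands, rose by 2.79 (adjusted p = 1.31e-05) and by 3.13 (adjusted p = 5.37e-06), and its other 2 probes rose by 2.46 and 2.58 against dsRed2 negative cells. Of 5 fibroblast markers tested, 2 rose and 1 fell against dsRed2 negative cells, and 3 rose and 1 fell against dsRed2 positive cells. Acta2 averaged 11.11 ± 1.52 in CHIRON, 8.95 ± 0.16 in dsRed2 positive and 9.86 ± 0.70 in dsRed2 negative cells (log2 signal, SD, n = 3 each). Bgn averaged 7.48, 6.88 and 7.68, and Thy1 averaged 5.32, 7.71 and 7.72 in the same groups. Col1a1 rose by 2.55 against dsRed2 negative cells (adjusted p = 0.00297, limma) and by 3.14 against dsRed2 positive cells (adjusted p = 0.000833). Col6a1 rose by 1.62 (adjusted p = 0.000463) and by 2.14 (adjusted p = 7.97e-05). Acta2 was called higher against dsRed2 positive cells alone, and Bgn was called in neither comparison. Thy1 was called lower in both, so the list did not move one way. Its summed level, with Acta2 the brightest, was 1813 to 8933 on CHIRON arrays, 976 to 1093 on dsRed2 positive arrays and 1237 to 2218 on dsRed2 negative arrays, with Col1a2, Col3a1, Lum and Postn detected on no array. The part of these markers in the result was not tested.

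Enzymes that modify or cut the receptors were tested in 2 lists, whose counts stand beside 40% and 41% of all genes called in the CHIRON comparisons. Of 7 glycosylation enzymes tested, 1 rose and none fell against dsRed2 negative cells. It was Mfng, another Fringe, detected on all CHIRON arrays and on no dsRed2 negative array, and at least 1.49-fold higher in CHIRON cells (adjusted p = 0.00588, limma), though its second probe was not called (0.35, adjusted p = 0.061). Mfng, compared with dsRed2 positive cells, was 0.79 higher (adjusted p = 0.00543), its second probe again not called (0.04, adjusted p = 0.858), and Pofut1, which adds O-fucose to Notch, fell by 0.35 (adjusted p = 0.0261), while its second probe gave 0.19 and was not called. The Pofut1 call was lost without any one of CHIRON replicates 1 and 2 and dsRed2 positive replicates 1 and 2. Of 8 proteases and gamma-secretase parts tested, 1 rose and 2 fell against dsRed2 negative cells. The gamma-secretase subunit Ncstn rose by 0.67 (adjusted p = 0.00325), with its other 2 probes at 0.30 and 0.33 and not called. Psenen fell by 0.46 (adjusted p = 0.0129) and Psen2 by 0.40 (adjusted p = 0.0433), and with each array centred on its median neither was called. Psenen also lost its call without dsRed2 negative replicate 3, and Psen2 in 11 of 20 alternatives. In CHIRON against dsRed2 positive cells 2 rose, Furin (0.73, adjusted p = 0.0192) and Ncstn (0.58, adjusted p = 0.00719), and 1 fell, Psenen (-0.51, adjusted p = 0.00795). The Furin call was lost without dsRed2 positive replicate 3 and with no detection filter.

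In the nuclear complex, 18 of 23 listed genes were tested, and 3 rose and 5 fell in each CHIRON comparison. One of the 3, Tle2, named after its values were seen, was detected on CHIRON arrays alone and passed the filter through them, and without it 2 of 17 rose. The co-activator Maml2 was 0.87 higher than in dsRed2 negative cells (adjusted p = 0.00521, limma) and 1.22 higher than in dsRed2 positive cells (adjusted p = 0.000677). The acetyltransferase Ep300 fell by 0.78 (adjusted p = 0.000323) and by 0.67 (adjusted p = 0.000817). Cir1, a co-repressor partner of Rbpj, fell by 0.82 (adjusted p = 0.00377) and by 0.89 (adjusted p = 0.00235) on its brightest probe, with its other 2 probes not called (-0.27 and -0.20 against dsRed2 negative cells). The co-repressor Ncor1 fell by 0.59 against dsRed2 negative cells (adjusted p = 0.00546) and by 0.58 against dsRed2 positive cells (adjusted p = 0.00539). Kat2b, an acetyltransferase, was detected on no CHIRON array and was at least 1.49-fold lower than in dsRed2 positive cells (adjusted p = 0.00144). It was at least 1.29-fold lower than in dsRed2 negative cells (adjusted p = 0.00772). With each array centred on its median, Ep300 and Ncor1 were no longer called and the complex gave 3 higher and 2 lower in either comparison.

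Of 16 genes for trafficking and turnover tested, 2 rose and 3 fell in each CHIRON comparison. Mib1, the ubiquitin ligase that ligand-sending cells need, rose by 0.79 against dsRed2 negative cells (adjusted p = 0.000415, limma) and by 0.83 against dsRed2 positive cells (adjusted p = 0.000306). Its relative Mib2 fell by 0.92 in each comparison (adjusted p = 0.000545 and 0.000528), and the Deltex gene Dtx1 fell by 1.36 (adjusted p = 0.00389) and by 1.42 (adjusted p = 0.00299). Ccnc, a cyclin of the kinase that marks the Notch intracellular domain for destruction, fell by 0.95 in each comparison (adjusted p = 0.000193 and 0.000185) on its brightest probe. Its 5 probes disagreed: against dsRed2 negative cells another was 0.65 higher (adjusted p = 0.0116 over all probes).

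Other Hes, Hey and direct targets gave 7 tested of 16, with 3 higher and 2 lower in each CHIRON comparison. Hes2, Hes3, Hes5, Hes7, Hey2, Heyl and Helt did not pass the detection filter. Hes6, named after its values were seen, fell by 0.93 against dsRed2 negative cells (adjusted p = 0.036, limma). Against dsRed2 positive cells it fell by 0.87 (adjusted p = 0.0469), and each call was lost in 10 of 20 alternatives. Its other probes gave -1.34 and -1.26 against dsRed2 negative cells (adjusted p = 0.00522 and 0.0109 over all probes, limma). Against dsRed2 positive cells they gave -1.32 and -1.29 (adjusted p = 0.00534 and 0.00925). Nrarp, a Notch target that feeds back on the Notch complex, averaged 8.27 ± 0.38 in CHIRON cells, 7.30 ± 0.19 in dsRed2 positive cells and 7.49 ± 0.29 in dsRed2 negative cells (log2 signal, SD, n = 3 each). It was 0.78 higher than in dsRed2 negative cells (adjusted p = 0.0123, limma) and 0.97 higher than in dsRed2 positive cells (adjusted p = 0.0037). Ccnd1, a cell cycle cyclin that is a target of Wnt signalling as well, rose by 1.96 (adjusted p = 3.98e-05) and by 1.77 (adjusted p = 7.18e-05). The cell cycle inhibitor Cdkn1a rose by 1.03 (adjusted p = 0.00551) and by 1.42 (adjusted p = 0.000847). Bhlhe40, a repressor of the same protein class as Hes1, fell by 1.34 (adjusted p = 0.00044) and by 1.23 (adjusted p = 0.00075).

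Partners of Notch in presomitic mesoderm and segmentation had the largest median difference of the 8 lists: 10 of 18 were tested, and 8 rose and 1 fell in each CHIRON comparison. Msgn1, Mesp2, Ripply1, Ripply2, Foxc2, Uncx, Meox1 and Spry2 were not tested, so the counts do not cover them. Without Mesp1, which passed the filter through the CHIRON arrays alone, 7 of 9 rose. Foxc1 and Lef1 are still among these 7, and both passed the filter only with the CHIRON arrays. The list's median log2 difference was 1.70 against dsRed2 negative cells and 1.53 against dsRed2 positive cells, beside -0.01 and -0.02 over all genes. With genes undetected in a group set at their bound, the medians were 1.67 and 1.53. All these medians hold Mesp1, Foxc1 and Lef1, which could enter only by being detected in CHIRON cells. Their size therefore rests in part on the filter, and no median without these genes was computed. Snai1, a zinc finger repressor of epithelial genes, rose by 2.63 against dsRed2 negative cells (adjusted p = 4.05e-06, limma) and by 2.84 against dsRed2 positive cells (adjusted p = 2.45e-06), with 0.64 and 0.55 on its second probe. Foxc1, a forkhead factor of paraxial mesoderm, rose by 2.15 (adjusted p = 5.85e-06) and by 2.11 (adjusted p = 6.47e-06), and was detected on 1 array of each sorted group. Without background correction the Foxc1 differences were 0.77 and 0.76. Axin2 and Nkd1, feedback inhibitors that Wnt signalling switches on, rose by 1.97 (adjusted p = 3e-05) and 2.02 (adjusted p = 7.24e-05) against dsRed2 negative cells, and a second Nkd1 probe rose by 0.53. Relative to dsRed2 positive cells they rose by 1.63 (adjusted p = 9.17e-05) and 2.04 (adjusted p = 6.49e-05). Tcf15, a helix-loop-helix factor of paraxial mesoderm, fell by 1.54 (adjusted p = 0.000913) against dsRed2 negative cells and by 1.82 (adjusted p = 0.000314) against dsRed2 positive cells. Mesp1 was at least 3.75-fold higher than in dsRed2 negative cells. Tbx6 rose by 1.43 (adjusted p = 0.0298, limma) against dsRed2 negative cells, a call lost in 9 of 20 alternatives. Against dsRed2 positive cells it rose by 1.42 (adjusted p = 0.03), a call lost in 8 of 20. Tcf15, Mesp1 and Tbx6 were named after their values were seen. Primitive streak markers summed to 5883 to 7624 on CHIRON arrays, 224 to 591 on dsRed2 positive arrays and 187 to 331 on dsRed2 negative arrays, and definitive endoderm markers to 1524 to 2587, 98.8 to 118 and 104 to 111 on the same groups. Their part in the changes of Notch genes was not tested.

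Of 12 genes listed as proneural or neural, 3 were tested: the proneural factor Neurog2 and the neuronal genes Tubb3 and Stmn2. They were named after their values were seen. None was called in either CHIRON comparison. Neurog2 and Tubb3 were detected on no CHIRON array, 1 dsRed2 positive array and 2 dsRed2 negative arrays. Their values lie at the detection limit, so the tests say little about proneural genes. Neural markers summed to 1866 to 2273 on CHIRON arrays, 2189 to 2296 on dsRed2 positive arrays and 2324 to 2555 on dsRed2 negative arrays. Sox1 and Pax6 were detected on no array. Stmn2 was the brightest of the list, averaging 10.62 in CHIRON, 10.82 in dsRed2 positive and 10.93 in dsRed2 negative cells (log2 signal). Blood markers stayed near background, at 103 to 111 on CHIRON arrays, 97.4 to 105 on dsRed2 positive arrays and 102 to 114 on dsRed2 negative arrays.

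**Figure D3:**
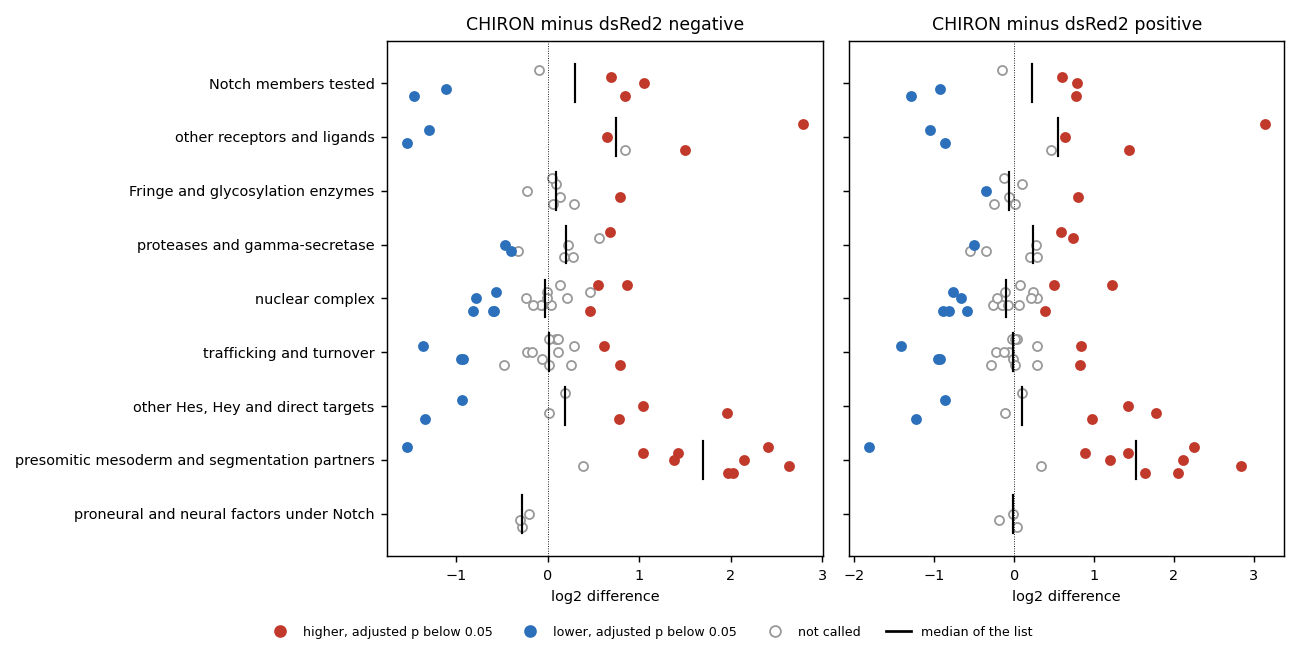
Log2 differences of the tested genes in 8 pathway lists and, in the top row, of the members (horizontal axis), with 1 point per gene and a bar at each median, for CHIRON minus dsRed2 negative and CHIRON minus dsRed2 positive. Filled points are called at an adjusted p below 0.05. The presomitic mesoderm list lies furthest to the right, with 8 of 10 tested genes higher in CHIRON cells. Mesp1, Foxc1 and Lef1 are among these 8 and passed the detection filter only with the CHIRON arrays.

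Across the 9 arrays, the genes whose profiles were most like those of Notch3, Dtx4 and Hes1 are given by Pearson correlation as a description, since the points share groups and arrays. For Notch3 they were Tmem94 (r = 0.996), Mpig6b (0.994) and Gorasp1 (0.992), and 385 of the 13198 other genes exceeded 0.95. For Hes1 they were Toe1 (0.993), LOC100041725 (0.988) and Lrig3 (0.987), with 234 genes over 0.95. For Dtx4 they were Lrrc8c (0.978), LOC100040671 (0.973) and Fat1 (0.971), with 32 genes over 0.95.

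**Figure D4:**
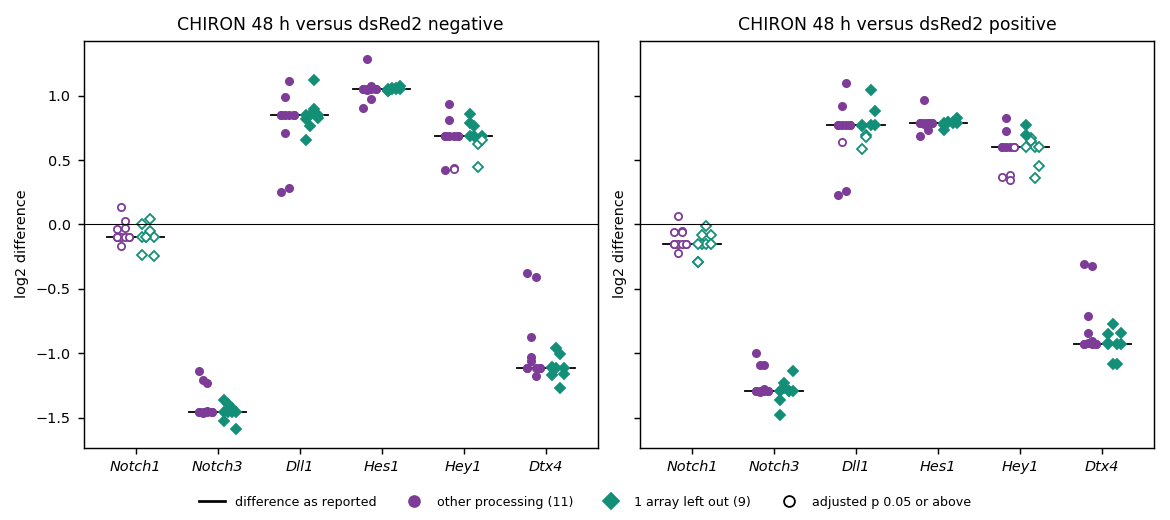
Log2 difference (vertical axis) of each tested member in the CHIRON comparisons as reported and under each processing alternative, including fits that leave out 1 array. Filled points have an adjusted p below 0.05 and the black line is the value as reported. Notch3, Hes1 and Dtx4 were called in all 20 alternatives in both comparisons, Dll1 in all 20 against dsRed2 negative cells, and Hey1 lost its call in several.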

How the data were processed

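Signal intensity and a detection p-value per probe were taken from the deposited table of non-normalized values for 9 Illumina arrays. Deposited log2 values served as an alternative; per the submitters' processing notes they come from lumi, whose version those notes do not give. Background correction and quantile normalization used neqc of limma 3.58.1 in R 4.3.3 (normexp from the detection p-values, offset 16, log2). Probes with a detection p below 0.05 on at least 3 arrays were kept (19074 of 45281), and the brightest stood for each gene (13204). lmFit and eBayes were fitted to all 9 arrays with group alone, for 3 contrasts. All 10 member symbols are current in RefSeq (GRCm38.p6). Other symbols were updated where a synonym matched (5710 of those on the array) and otherwise kept as given (8940).

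The members and lists were chosen with earlier results of these data known. Beside the members, the text names up to 4 called genes a list and comparison with the smallest p, 3 likest genes for 3 members, and up to 3 leading markers a list; markers undetected on every array are named too, and other names were added after their values were seen, as said beside them or, for markers, to show members of a list that differ. Per the labels, replicates are biological. Their separation into cultures is not given in the sources used here, so p-values measure the spread between these samples. Replicate numbers pair the sorted arrays by the data: deviations from group means correlated at 0.536, 0.583 and 0.351 between dsRed2 positive and dsRed2 negative arrays that share a number. CHIRON arrays were not paired with them (-0.145 to 0.101). The script for the fits was tested on simulated data.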

Additional observations from a re-analysis of the deposited data

How the results depend on the processing

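Alternatives changed the background correction, normalization (median centring, the deposited log2 values), detection filter, probe choice, array weights, arrays fitted, replicate block and the averaging of CHIRON replicates 1 and 2, and left out each array in turn. Median centring moved the median of all genes to 0.14 (log2) against dsRed2 negative cells and to 0.12 against dsRed2 positive cells, and the share of calls that were higher to 68.7% (from 50.2%) and 65.7% (from 50%). The members still gave 3 higher and 2 lower.

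Genes called were 4265 to 5194 with 1 array left out and 4100 to 6030 otherwise against dsRed2 negative cells, 4336 to 5423 and 4140 to 6690 against dsRed2 positive cells, and 0 between sorted groups except 3 with the replicate block over the 6 sorted arrays. The replicate block over 9 arrays changed no member's call. Members called were 4 to 5 against dsRed2 negative cells and 3 to 5 against dsRed2 positive cells (3 without CHIRON replicate 2 and without dsRed2 positive replicate 3).

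Dll1 against dsRed2 positive cells was not called with CHIRON replicates 1 and 2 averaged (0.64, adjusted p = 0.0529). Hey1 was not called with no detection filter (adjusted p = 0.0739 against dsRed2 negative and 0.116 against dsRed2 positive cells) or with array weights (0.0534 and 0.0803), nor, against dsRed2 positive cells, without background correction (0.0613), with the deposited values (0.0704) or with only the 6 arrays compared (0.0664). The deposited values and those without background correction gave smaller differences against dsRed2 negative cells for Dll1 (0.28 and 0.25), Dtx4 (-0.41 and -0.38) and Hey1 (0.44 and 0.42). Values of Dll1 and 1 Dtx4 probe lay near the detection limit, while Hey1 was detected on all 9 arrays. The cause of the smaller differences was not tested.

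Uncalled differences that changed sign were Notch1 against dsRed2 negative cells (0.13 with median centring, 0.029 with array weights, -0.24 to 0.045 with 1 array left out), Notch1 against dsRed2 positive cells (0.067 with median centring), and, between sorted groups with 1 array left out, Notch1 (-0.089 to 0.20), Dll1 (-0.037 to 0.17), Notch3 (-0.32 to 0.021) and Hey1 (-0.0091 to 0.23).

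Of 73 calls of list genes in the CHIRON comparisons, 54 were kept under every alternative and 0 changed sign; these runs were added after seeing the data. Sizes were less stable: of 49 calls of the list genes named by rule, 34 were over 1.5 times smaller on the log2 scale under some alternative, 23 of them smallest without background correction or with the deposited values. Without background correction the differences from dsRed2 negative cells were -0.44 for Jag2, -0.52 for Dlk2, 0.79 for Notch4, 0.33 for Maml2, 0.29 for Mib1, -0.64 for Dtx1, 1.31 for Snai1 and 0.92 for Nkd1. Glycosylation enzymes against dsRed2 positive cells had 1 call with median centring, the mean of passing probes or the CHIRON average, and 1 to 2 with 1 array left out. The nuclear complex had 5 with median centring in either comparison. Against dsRed2 negative cells the proneural and neural list had 1 call without background correction, with the deposited values or with array weights. With 1 array left out it had 0 to 1, and proteases had 1 to 3. A slide block was not run because the headers name no slide.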
